A study of Arabidopsis thaliana with 8 samples.

Results

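This section describes how the second replicate differed from the first in 3 groups of 21-day-old Arabidopsis thaliana plants, and which transcripts differed the same way in all 3. The 6 arrays of those groups, of 8 in all, form 3 pairs: aerial part, young leaves and mature leaves. Within each pair the log2 level on the array of replicate 2 minus that of replicate 1 was taken for 19318 loci that passed a detection filter, out of 25426 on the array. A locus counted as shifted when the difference was at least 0.5 log2 units in the same direction in all 3 pairs. By that rule 188 loci were higher in replicate 2 (0.973% of those measured) and 153 were lower (0.792%), 341 in all (1.77%).

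All plants were ecotype Columbia-0, grown on GM medium plates at 22 °C with 16 h light and 8 h dark after 3 days of stratification at 4 °C in darkness. No group carries a mutation, transgene or treatment. The aerial part is everything above ground at 21 days after germination, young leaves are the newest 3 leaves of such plants, and mature leaves their oldest 3 leaves, cotyledons left out. The remaining 2 arrays are whole plants 2 days after germination (2 DAG), roots included, and serve as a contrast pair. The design text calls the 2 arrays of a group biological replicates and the titles number them. Hour of harvest, sowing and number of plants are not given in the sources used here.

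Plants carry a circadian clock, a feedback circuit in which dawn-expressed MYB factors repress evening genes, PRR repressors follow one another through the day and silence the dawn genes, and evening proteins close the loop at dusk. In leaves the same circuit times starch turnover, the gate for cold-regulated genes and the CONSTANS pathway that reads day length. Because transcripts of this circuit cycle daily, their ratio between samples depends on the hour at which tissue is frozen. The labels do not state those hours, and whether the hour of harvest differed between the replicates was not tested.

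Technical values were close within each pair. The share of probes well above background was 72.1% in replicate 2 and 72.4% in replicate 1 of aerial part, 69.2% in replicate 2 and 69.7% in replicate 1 of young leaves, and 66.7% in either replicate of mature leaves. Replicates correlated across loci at 0.994 to 0.996 in the 4 groups. Each pair lay on 1 slide, with replicate 2 at position 2 or 4 and replicate 1 at position 1 or 3, so slide position and replicate number cannot be told apart. The 2 DAG pair had the same arrangement. With 1 array per sample, precision is limited by how many arrays there are.

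The members were chosen by these 3 differences between log2 levels, and the comparison itself was proposed because clock genes had been seen to differ in it. Their differences are therefore given as a description, with no test per gene. The mean of the 3 differences is given with its standard error from limma (SE, n = 3 pairs). This error measures how alike the difference was in the 3 tissues, and aerial part covers leaves of both kinds. It does not measure the spread that further replicates would have. limma on all loci called 168 higher (0.870%) and 152 lower (0.787%) at an adjusted p under 0.05, counts that rest on 2 residual degrees of freedom. They use the values that proposed the comparison and are read no further.

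Dawn genes of the clock were lower in replicate 2. Of the 11 on the dawn list, 10 were lower by sign in all 3 pairs, against 24.4% of all loci (22.6% were higher). Of the 10, 5 were lower by at least 0.5, beside 0.792% of all loci. With normexp background correction with an offset of 50, an alternative to the scanner's own correction, 3 were. LHY (AT1G01060), a dawn MYB repressor, had log2 levels of -3.07 in aerial part, -4.25 in young leaves and -1.68 in mature leaves of replicate 2, against -1.64, -2.05 and -0.27 in replicate 1. Its mean difference was -1.68 ± 0.19, a level 3.20-fold higher in replicate 1, and -1.08 with normexp. In every pair replicate 2 was the lower, although the ranges of the 2 replicates overlap across tissues because mature leaves were the highest in both.

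CCA1 (AT2G46830), the partner of LHY, had levels of -0.03, -0.65 and 1.54 in replicate 2 and 1.14, 0.97 and 2.31 in replicate 1, with the tissues in the same order. The mean difference was -1.19 ± 0.18. RVE8 (AT3G09600), a MYB factor that activates evening genes, had levels of -4.49, -4.76 and -3.81 in replicate 2, against -3.37, -3.37 and -2.87 in replicate 1. Its replicates did not overlap across the 6 arrays, with a mean difference of -1.15 ± 0.10, which was -0.50 with normexp. RVE1 (AT5G17300), a related MYB factor that links the clock to growth, differed by -1.13, -1.54 and -1.03.

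The coactivator LNK2 (AT3G54500), which works with RVE8, lay just inside the limit at -0.58, -1.02 and -0.50. PRR9 (AT2G46790), the first PRR repressor after dawn, was lower by sign in all 3 pairs but missed the limit in mature leaves, with -1.16, -1.39 and -0.33 (mean -0.96, or -0.62 with normexp). Smaller differences, none past the limit in all 3 pairs, were those of RVE7 (mean -0.40), LNK1 (-0.34), RVE4 (-0.27) and AT5G52660 (-0.11). RVE2 (AT5G37260) was the exception on the list: it differed by 0.65 and 0.70 in aerial part and young leaves and by -0.23 in mature leaves.

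The day list of 4 genes was split. PRR5 (AT5G24470), the PRR repressor of the later day, was higher in replicate 2 with levels of 2.49, 2.51 and 2.58, against 0.76, 0.68 and 0.62 in replicate 1. The 2 replicates were far apart and the 3 tissues nearly equal, with a mean difference of 1.84 ± 0.06 (3.58-fold). PRR7 (AT5G02810), which acts between PRR9 and PRR5, differed by 0.16, 0.10 and 0.37. LNK3, a relative of LNK2, had a mean difference of -1.25 ± 0.16, and LNK4, another, differed by -1.28 in young and -0.73 in mature leaves, with aerial part between. Along the PRR series the differences were thus below 0 for PRR9, near 0.2 for PRR7 (0.21 ± 0.07) and above 0 for PRR5, PRR3 and TOC1.

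All 9 evening genes were higher in replicate 2 by at least 0.5 in all 3 pairs, beside 0.973% of all loci. The median of their mean differences was 1.09, against 0.00 over all loci measured. With normexp background correction 7 of the 9 passed. PRR3 (AT5G60100), a PRR protein that stabilises TOC1, had levels of 0.24, 0.46 and -0.37 in replicate 2 and -1.78, -1.46 and -2.59 in replicate 1. Its mean difference was 2.05 ± 0.07, or 4.15-fold. TOC1 (AT5G61380), the evening repressor of CCA1 and LHY, had 0.03, 0.09 and -0.45 in replicate 2, against -1.38, -1.41 and -1.60 in replicate 1. For both genes the 3 arrays of replicate 2 lay above the 3 arrays of replicate 1.

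The evening complex, a repressor made of LUX, ELF3 and ELF4, was higher in all its parts. LUX (AT3G46640), its DNA-binding subunit, had levels of 1.07, 1.42 and 0.28 in replicate 2, against -0.65, -0.22 and -1.30 in replicate 1. ELF4 (AT2G40080) differed by 1.61, 1.71 and 1.28, and ELF3 (AT2G25930), the scaffold of the complex, by 0.68, 0.67 and 0.72. BOA (AT5G59570), a close relative of LUX, differed by 1.06, 1.28 and 0.92 (mean 1.09, or 0.52 with normexp).

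GI (AT1G22770), which stabilises photoperiod proteins, had levels of 1.07, 1.04 and 1.31 in replicate 2 and 0.08, 0.03 and 0.38 in replicate 1. The difference of about 1 log2 unit was the same in the 3 tissues to within 0.1 (0.99, 1.01 and 0.93). FKF1 (AT1G68050), a blue-light F-box protein that binds GI, differed by 0.78, 1.21 and 0.62. JMJD5 (AT3G20810), an evening-phased demethylase, differed by 0.85, 1.42 and 0.67.

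Clock-related genes outside these lists, 11 in number, stayed near 0: none passed the limit in all 3 pairs (0 of 11), and their mean differences ran from -0.04 to 0.27. They include ZTL, the F-box protein that degrades TOC1 and is regulated mainly as a protein (-0.01, 0.08 and -0.03), its relative LKP2 (mean 0.09), and TIC, XCT, FIO1, LWD1, LWD2, SKIP, PRMT5 and CKB4. The largest was CHE, a factor that binds the CCA1 promoter, with 0.19, 0.19 and 0.44.

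**Figure D1:**
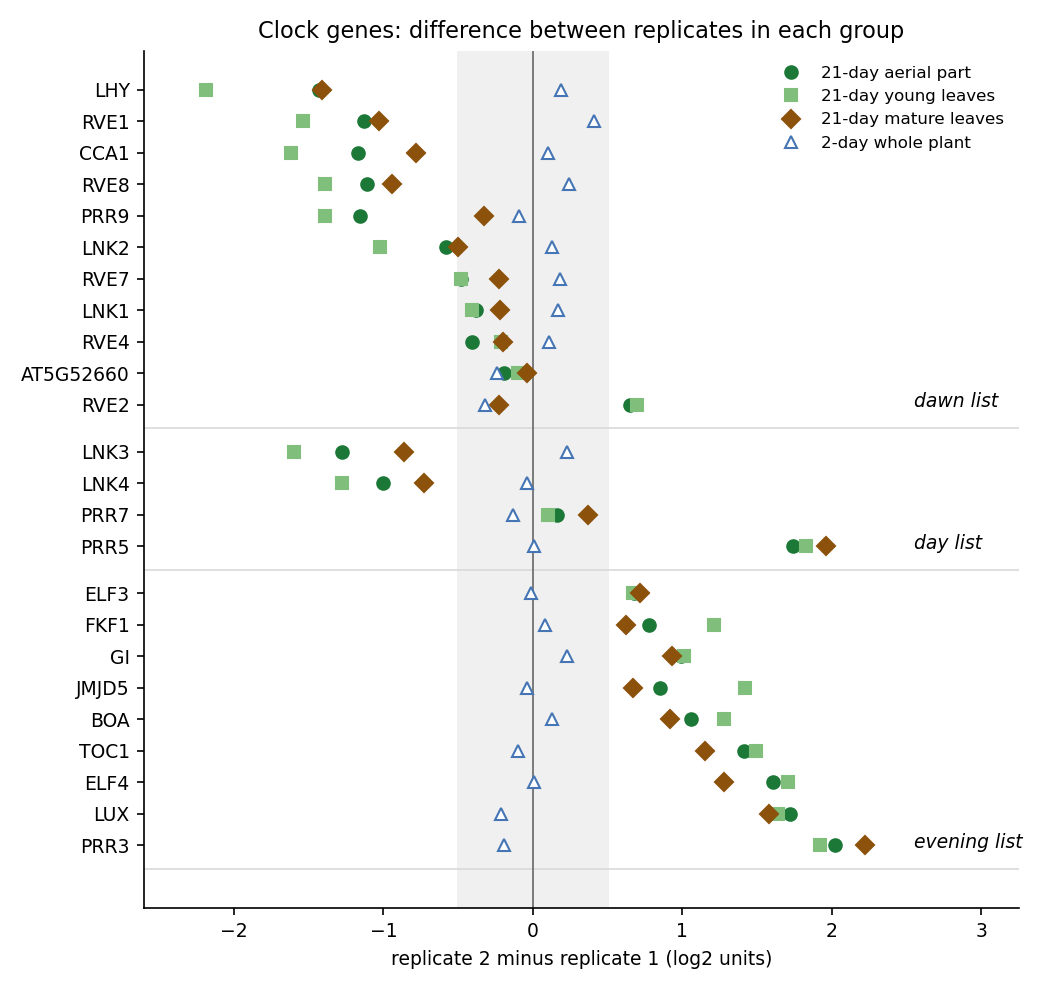
Replicate 2 minus replicate 1 in log2 units for the dawn, day and evening clock lists, with 1 symbol per group and the range within 0.5 of 0 shaded. All 9 evening genes lie right of the shaded band in the 3 21-day groups, 5 of 11 dawn genes lie left of it in all 3, and the 2-day symbols of all 24 genes lie inside it.

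The 24 genes of the 3 clock lists differed most strongly in young leaves in 16 cases, in aerial part in 4 and in mature leaves in 4. Among all shifted loci the pattern was not the same. Of the 188 higher ones, 100 differed most in mature leaves, 60 in young leaves and 28 in aerial part. Of the 153 lower ones 84 differed most in young leaves, 36 in mature leaves and 33 in aerial part. Of all 19318 loci, 8290 differed most in mature leaves, 5384 in young leaves and 5644 in aerial part. The SD of the differences over all loci was 0.36 in mature leaves, 0.31 in young leaves and 0.26 in aerial part. These counts describe values that chose the members and have no test.

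**Figure D2:**
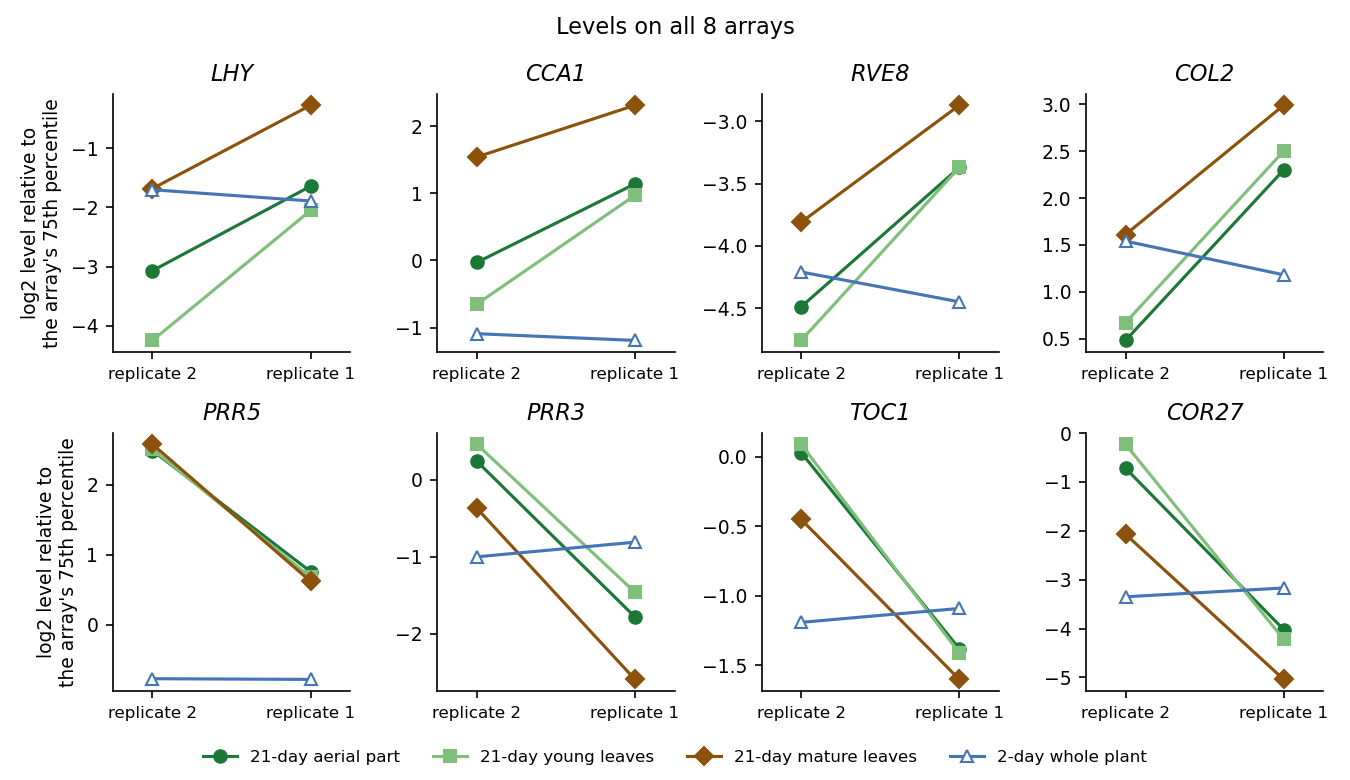
Log2 level relative to the 75th percentile of the array on all 8 arrays for 4 genes lower and 4 genes higher in replicate 2, with replicate 2 left and 1 line per group. The 3 21-day lines slope the same way within each panel (LHY differs by -1.43, -2.19 and -1.41), and the 2-day line is nearly flat (0.19 for LHY).

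In the photoperiod pathway, CDF factors repress CONSTANS (CO) in the morning, and CO switches on the florigen gene FT at the end of a long day. Of 8 measured genes, 5 were lower in replicate 2 by at least 0.5 in all 3 pairs and 1 was higher, beside 0.792% and 0.973% of all loci. CDF1 was lower with -0.76, -0.55 and -0.53, CDF2 with a mean of -0.73 ± 0.08, and the listed locus AT1G69570 with -0.77 ± 0.06 (-0.47 with normexp). CO (AT5G15840) was the higher one, at levels of -4.15, -3.96 and -4.02 in replicate 2, against -5.37, -5.85 and -4.74 in replicate 1. Its mean difference of 1.28 ± 0.25 was 0.33 with normexp. FT, detected on 4 of the 6 arrays, differed by 0.46, 0.97 and -0.05, not past the limit, and CDF3 by a mean of -0.44 ± 0.05. The CO relatives COL1 and COL2 were lower, and COL2 (AT3G02380) had 0.48, 0.67 and 1.61 in replicate 2, against 2.30, 2.50 and 2.99 in replicate 1.

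Of 7 genes listed as evening outputs of the clock, 4 were higher in replicate 2 by at least 0.5 in all 3 pairs and 2 lower. Of all loci 0.973% were higher and 0.792% lower by that rule. The 2 lower genes went the other way from the evening clock genes, and whether they are evening-phased was not checked. COR27 (AT5G42900), a cold-regulated gene that feeds back on the clock, had the largest mean difference among loci detected on all 6 arrays. Its levels were -0.72, -0.23 and -2.07 in replicate 2, against -4.02, -4.22 and -5.04 in replicate 1, a mean difference of 3.42 ± 0.22 or 10.7-fold (2.19 with normexp). AT4G33980 had 0.65, 0.53 and 0.24 in replicate 2, against -2.52, -2.73 and -3.02 in replicate 1. For both, replicates were separate on all 6 arrays. GRP7 (AT2G21660), an RNA-binding protein that peaks in the evening and oscillates under clock control, differed by a mean of 1.47 ± 0.16, and its relative GRP8 by 0.74 ± 0.07. The 2 lower genes were BBX18 (-0.77 ± 0.10, or -0.26 with normexp) and BBX19 (-0.78 ± 0.08), and CAT3, an evening catalase, was at 0.35 ± 0.05.

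Starch is built by day and degraded at night. Of 16 measured genes of starch breakdown, 14 were higher by sign in all 3 pairs (22.6% of all loci were). By at least 0.5, 5 of them were higher and 1 gene was lower, beside 0.973% and 0.792% of all loci. The median mean difference was 0.44. PHS2 (AT3G46970), the cytosolic glucan phosphorylase, had levels of 4.67, 4.79 and 4.71 in replicate 2 and 3.80, 3.95 and 3.81 in replicate 1, with no overlap. ISA3 (AT4G09020), a debranching enzyme, differed by 0.71, 0.79 and 0.96. The kinases that phosphorylate starch, GWD1 and PWD, differed by means of 0.60 ± 0.05 and 0.66 ± 0.07, and the phosphatase SEX4 by 0.59 ± 0.04. AMY3, an alpha-amylase, and DPE1 missed the limit in at least 1 pair with means of 0.55 and 0.48. BAM9, a beta-amylase relative, was lower with -0.51, -0.72 and -0.89.

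Starch synthesis, by contrast in these values, had a median of -0.01 over 12 genes. Past the limit 1 was higher and 1 lower, beside 0.973% and 0.792% of all loci. GBSS1 (AT1G32900), which makes amylose, had levels of 0.02, -0.29 and 0.91 in replicate 2, against 0.99, 1.08 and 1.69 in replicate 1. The branching enzyme gene BE3 was higher by 0.69, 0.51 and 0.98. Among 14 genes known from dark and sugar starvation only BT2 (AT3G48360), a BTB scaffold protein that responds to sugar and nitrogen, passed the limit, with 1.78, 2.40 and 0.98. DIN11, next on that list, differed by 0.69, 0.18 and 0.74.

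Of 15 cold-regulated genes, 13 were higher by sign in all 3 pairs, against 22.6% of all loci. By at least 0.5, 7 were higher, beside 0.973% of all loci, and the median of the list was 0.58. COR15B (AT2G42530), a chloroplast stroma protein, had levels of 4.81, 4.99 and 4.62 in replicate 2, against 3.51, 3.68 and 2.63 in replicate 1. GOLS3 (AT1G09350), a galactinol synthase, differed by 0.96, 1.50 and 2.73 (mean 1.73, or 0.95 with normexp). RD29A, COR15A, COR414-TM1, KIN1 and KIN2 were the other members past the limit, with mean differences between 0.91 and 1.09. COR15A and COR15B, and likewise KIN1 and KIN2, are near-identical neighbours whose probes can share signal. The CBF factors that switch on this group differed less, with means of 0.35 for CBF1 (0.22 with normexp), -0.06 for CBF2 and 0.42 for CBF3.

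Heat-shock genes were lower: of 10 measured, 9 were lower by sign in all 3 pairs, against 24.4% of all loci. By at least 0.5, 3 were lower, beside 0.792% of all loci. The median of the list was -0.70, or -0.39 with normexp. HSP70 (AT3G12580), a chaperone, had levels of -1.25, -2.61 and 0.31 in replicate 2, against -0.06, -1.20 and 1.30 in replicate 1. GOLS1 (a heat-inducible galactinol synthase) differed by a mean of -0.77 ± 0.05 and MBF1C (a heat-stress coactivator) by -0.63 ± 0.05. AT1G53540 was well above background on 4 of the 6 arrays only and missed the limit in aerial part with -0.43 (mean -0.32 with normexp). DREB2A was the 1 listed gene that was higher, at 0.48 ± 0.09.

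In other groups few or no members passed the limit, which 1.77% of all loci passed in either direction. None of 18 light-harvesting genes, 11 of chlorophyll synthesis, 13 of flavonoid synthesis, 17 of touch and wounding or 8 of nitrogen assimilation passed the limit in all 3 pairs. Their medians were 0.00, -0.05, -0.11, 0.10 and 0.06. In the flavonoid list 7 genes were lower by sign in all 3 pairs, led by PAL2 (mean -0.52). Of 11 genes of shade and growth, 2 were lower, the bHLH factor gene HFR1 (mean -0.71 ± 0.09) and the cytokinin oxidase gene CKX5 (-0.68 ± 0.06, or -0.41 with normexp).

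**Figure D3:**
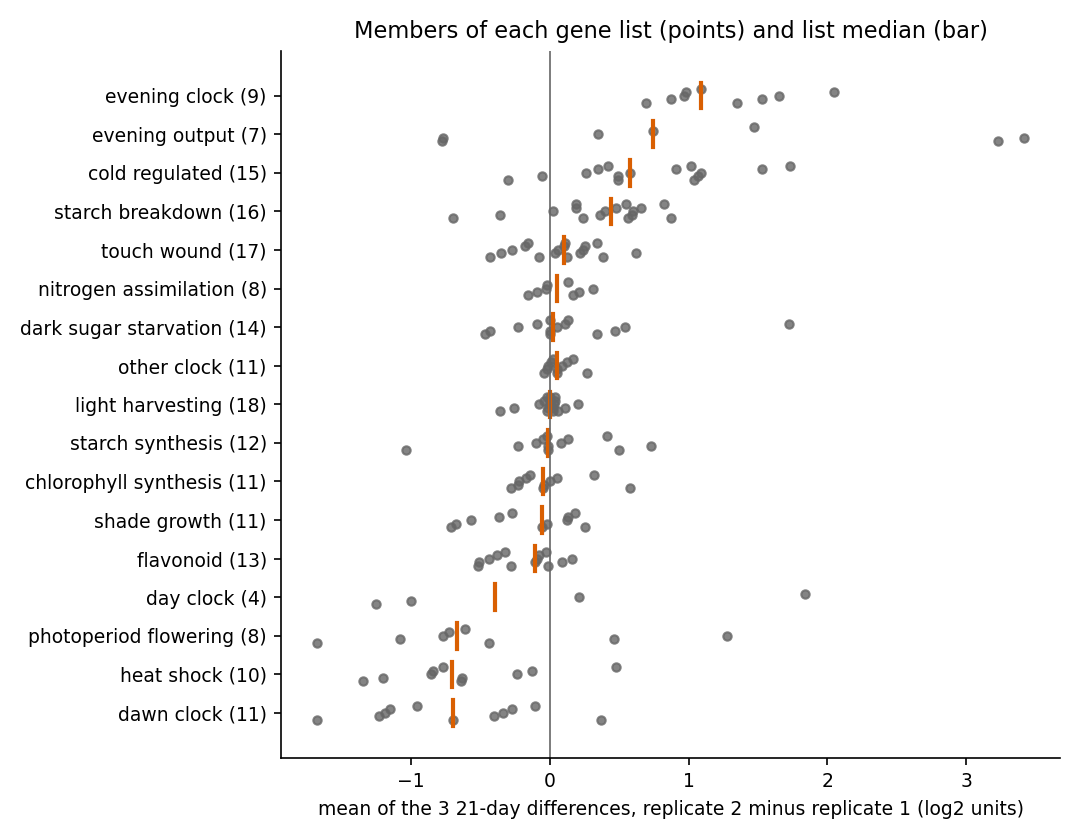
Mean of the 3 21-day differences, replicate 2 minus replicate 1, for every measured member of 17 gene lists (points, with the number in brackets) and the median of the list (bar). Evening clock, cold-regulated and starch-breakdown genes lie mostly right of 0 (medians 1.09, 0.58 and 0.44), dawn clock and heat-shock genes mostly left (both -0.70).

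Tissue composition markers were also read, as a check on what was sampled. Of the 14 markers of dividing cells, 6 of the stomatal lineage, 7 of flowers and 4 of mesophyll, 0 passed the limit in all 3 pairs, with medians of 0.01, -0.11, 0.24 and -0.08. Their summed position on the arrays, as the mean log2 level of the list, was -0.72 in replicate 2 and -0.86 in replicate 1 of aerial part for dividing cells, -0.36 and -0.34 in young leaves, and -4.60 and -4.53 in mature leaves. For flower markers it was -2.21 in replicate 2 and -2.57 in replicate 1 of aerial part, -5.23 and -6.11 in young leaves, and -5.59 and -5.23 in mature leaves. All 7 flower markers were above 0 in aerial part and young leaves and below 0 in mature leaves, with 3 of the 7 detected on all 6 arrays, and their part in the other differences was not tested. Of 7 root markers only 3 passed the detection filter in shoots, with a median of 0.03. Of 5 measured senescence markers 1 was lower past the limit, NAP (-0.78, a NAC factor of leaf senescence). In tissue samples, fewer cells of a type and less RNA per cell cannot be told apart.

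Outside the lists, the largest differences included loci with no name in the annotation. Among those higher in replicate 2, AT1G07050 differed by 3.29, 3.22 and 3.48, AT5G23240 (DNA J protein C76) by 2.47, 2.65 and 3.04, AT1G17665 by a mean of 2.50 ± 0.04 (1.38 with normexp), AT1G70640 by 2.42 ± 0.29 (0.89 with normexp), and AT5G62360 by 1.95 ± 0.13. DREB2C, a transcription factor of the DREB family, differed by 1.81, 2.76 and 1.34 (mean 1.97, or 0.72 with normexp). Among those lower, ASG4 (AT1G01520), a MYB-like factor, had levels of -3.89, -4.73 and -2.39 in replicate 2, against -2.26, -2.55 and -1.34 in replicate 1 (mean difference -1.62, or -0.97 with normexp). BETA-OHASE 2, a beta-carotene hydroxylase, differed by a mean of -1.31 ± 0.07, AT5G15950 by -1.31 ± 0.15, AT4G27360 by -1.44 ± 0.19 (-0.74 with normexp) and AT5G44575 by -1.27 ± 0.26 (-0.61 with normexp).

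B-box proteins, zinc-finger regulators of light responses and flowering, recurred on both sides. The family was singled out after these values were seen. Of 31 members named in the annotation 27 were measured, of which 6 were higher and 9 lower in all 3 pairs, against 0.973% and 0.792% of all loci. The lower ones were BBX30, BBX31 and BBX32 (means -1.39, -1.52 and -1.73, the last 2 at -0.97 and -1.03 with normexp), COL1, COL2, BBX16, BBX18, BBX19 and STH. The higher ones were COL9 (AT3G07650, a repressor of flowering, 2.04 ± 0.20), BBX8, BBX13, BBX14, BZS1 and CO.

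Values near the limit were continuous across it. Just inside on the higher side were AT1G12730, AT5G46600 and AT1G78410, whose smallest differences were 0.50 after rounding, 0.502 and 0.507, and just outside ABF1 and AT3G16565 (both 0.499) and LCR66 (0.50 after rounding up). On the lower side AT4G27450, LNK2 and ROT4 lay inside (smallest absolute difference 0.501, 0.502 and 0.505), and PROPEP4, AT2G41480 and AT4G30450 outside (0.50 after rounding up, 0.495 and 0.494). With no limit, 4374 loci were higher (22.6%) and 4705 lower (24.4%) in all 3 pairs, and with a limit of 1, 44 and 13.

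Detection was complete for most members, as for most loci: 172 of the 188 higher and 134 of the 153 lower loci were well above background on all 6 arrays. Of all 19318 loci 17317 were, a similar share. The others passed the filter through at least 1 group and could be dim elsewhere. Another probe passed the filter for 100 members, and for 99 of them every such probe differed in the same direction in all 3 pairs, while for 76 every such probe also passed the limit. For 1, EXT3, a cell-wall extensin, a second probe had the opposite mean difference. Agreement between probes was not computed over all loci. Adjacent loci made up 10 pairs of members, of which 9 differed in the same direction. They include COR15B with COR15A and GWD1 with AT1G10770, and the opposite pair is AT5G15950 (lower) beside KIN1 (higher). The pairs are not independent, since KIN1 and CSLB04 each fall in more than 1, and probes of near-identical neighbours can share signal. How often adjacent loci differ alike was not computed over all loci, so the count is a description only.

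Loci chosen in 2 tissues mostly had the same sign in the remaining one. Of 276 loci at least 0.5 higher in both aerial part and young leaves, 87% were also higher in mature leaves and 68.1% by at least 0.5, against 46.3% and 4.55% of all loci there. Of 237 lower in the same 2 groups, 92% were lower in mature leaves, against 53.7% of all loci. Chosen in the other 2 groups and read in young leaves, 95.1% of 263 and 84.4% of 243 had the same sign, and read in aerial part, 93.7% of 239 and 87.7% of 260. These shares are given without a test, since the comparison was proposed from the same arrays. The tissues are not independent, because aerial part covers leaves of both kinds and slide position goes with replicate number in every pair. The shares therefore do not count as replication.

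In the 2 DAG contrast pair, none of the 24 genes of the dawn, day and evening lists differed by 0.5 or more between replicates (0 in either direction). Of all loci 2.51% were at least 0.5 higher and 2.09% at least 0.5 lower in replicate 2. At those shares few or none of 24 genes would pass, so the count does not set the clock genes apart. PRR5 had 2 DAG levels of -0.77 in replicate 2 and -0.78 in replicate 1, LHY had -1.70 and -1.89, and TOC1 had -1.19 and -1.09. The 24 genes were well above background on both 2 DAG arrays. This pair is 1 array against 1 and has no replicate check.

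Over all members, the 2 DAG differences leaned the other way by a small amount. Of the 188 loci higher at 21 days, 75 were above 0 and 113 below 0 at 2 DAG, with a median of -0.06. Of the 153 lower ones 116 were above 0 and 37 below 0, with a median of 0.19. Over all loci 49.5% were above 0. At 2 DAG 7 of the 188 were at least 0.5 higher and 9 at least 0.5 lower, and of the 153 17 were at least 0.5 higher and 4 at least 0.5 lower, beside 2.51% and 2.09% of all loci. The largest 2 DAG differences among members were those of AT1G51090 (1.77), AT2G15020 (1.27) and PUB19 (1.21) upward, and AT4G12735 (-1.28), WRKY54 (-0.86) and AT5G18540 (-0.80) downward. AT1G51090 was well above background on 0 of the 2 DAG arrays, and AT4G12735 and WRKY54 on 1 of 2, so their sizes and rank there are not settled.

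The difference between the 2 DAG difference and the 21-day mean was tested with limma on all 8 arrays. Its residual spread comes from the 21-day pairs alone, since 2 DAG has 1 pair. It called 2 loci (0.0104% of 19316), while 3796 had an unadjusted p under 0.05 (19.7%). One was AT4G33980, with a value of -3.37 ± 0.08 (adjusted p = 0.0404), whose 21-day differences helped to choose it. The other, AT4G25940, is no member: it differed by about 0.26 in each 21-day pair and had 2 DAG levels of -8.43 in replicate 2 and -5.80 in replicate 1, detected on 1 of those 2 arrays, so that the size of its value (-2.88 ± 0.08, adjusted p = 0.0404) is not settled. None of the 24 clock genes was called, and that does not show that their differences were alike at both ages. When any 1 of the 3 21-day pairs was left out, limma called 0 loci, with 2145 to 3810 at an unadjusted p under 0.05.

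**Figure D4:**
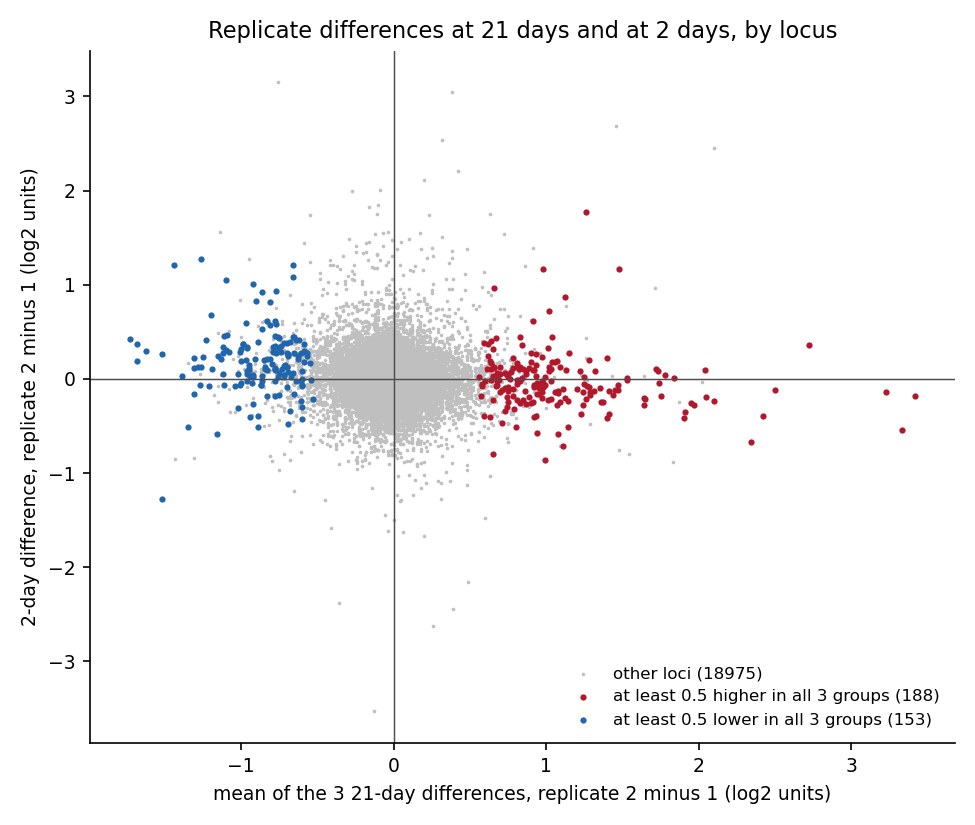
Each point is a locus, with the mean of the 3 21-day differences (replicate 2 minus replicate 1, log2 units) across and the 2-day difference up. The 188 higher and 153 lower loci lie far from 0 across, by the rule, and mostly within 1 unit of 0 up the page, with medians of -0.06 and 0.19.

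The estimate of a difference between tissues does not depend on the replicate difference, since each tissue holds both replicates. Mature minus young leaves was therefore tested for the members, with limma on the 6 arrays. With no term for replicate, 7042 loci were higher in mature leaves (36.5%) and 7370 lower (38.2%), 74.6% in all. The labels do not say that replicates of the same number belong together across tissues. A block by replicate number was fitted because the replicate differences correlated between tissues. With it 7613 were higher (39.4%) and 7844 lower (40.6%), 80.0% in all. Scaling on the median of each array moved the median of all loci by 0.26 and gave 9323 higher and 5695 lower without the block, and normexp gave 9200 and 6054. Relative to the 75th percentile, spike-in control probes were at -0.52 and -0.42 on the mature-leaf arrays (replicates 2 and 1). On the young-leaf arrays they were at -1.32 and -1.35. No scaling on spike-ins was run, so the direction of small leaf differences rests on the scaling chosen.

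The choice of members fixes that a fit without the block gives them wide errors, since the replicate difference then counts as residual. Of the 341 shifted loci, 129 were called without it (37.8%) and 284 with it (83.3%), while the median standard error of these loci was 0.52 without and 0.10 with the block. For all loci it was 0.09 and 0.07. Of the 24 clock genes 5 were called without the block and 22 with it, beside 74.6% and 80.0% of all loci. This count was added after seeing the data.

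With the block, 10 of 11 dawn genes were higher in mature than in young leaves and 1, RVE2, was lower, beside 39.4% and 40.6% of all loci. CCA1 was higher in mature leaves by 1.76 ± 0.22 (adjusted p = 0.0028 with the block, 0.071 without), and LHY by 2.17 ± 0.23 (0.0018 with, 0.097 without). Of the 9 evening genes, 6 were lower in mature leaves and 2 higher, beside 40.6% and 39.4% of all loci. LUX differed by -1.11 ± 0.06 (0.00029 with, 0.32 without), PRR3 by -0.98 ± 0.09 (0.0011 with, 0.48 without) and BOA by -1.15 ± 0.10 (0.0011 with, 0.15 without). GI (0.31 ± 0.05) and FKF1 (0.53 ± 0.16) were the 2 higher ones, differences smaller than the gap in spike-in level between the leaf groups. ELF4 was not called (0.31 ± 0.12, adjusted p = 0.078). PRR5 did not pass the test in either fit, at 0.00 ± 0.07 with the block.

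The members that were lower and those that were higher in replicate 2 were then read apart, with no test between them. Of the 153 loci lower in replicate 2, 120 were higher and 20 lower in mature than in young leaves with the block, with a median of 1.40. Of all loci 39.4% were higher and 40.6% lower. Of the 188 loci higher in replicate 2, 65 were higher and 79 lower in mature leaves, near those shares, with a median of -0.12. The larger count of that pair turned to 81 higher and 61 lower with median scaling and to 82 and 73 with normexp. Over all 19318 loci the block gave 9875 higher and 6090 lower with median scaling, and 9821 and 6525 with normexp. With those 2 scalings the loci lower in replicate 2 kept medians of 1.66 and 1.09, beside 0.26 and 0.17 over all loci.

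**Figure D5:**
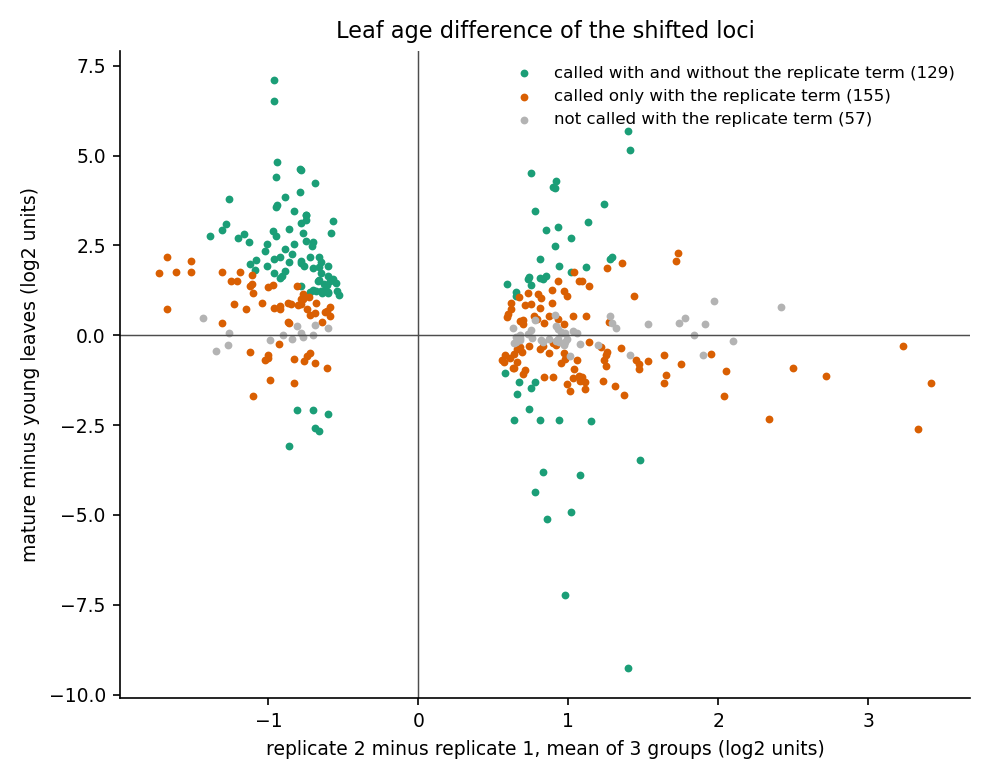
Mature minus young leaves (up, log2 units) against replicate 2 minus replicate 1 (across, mean of the 3 groups, log2 units) for the 341 shifted loci, coloured by whether limma called the leaf difference with and without a replicate term. In all 129 loci were called both ways and 155 only with the replicate term, and most loci left of 0 lie above 0.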

How the data were processed

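Total RNA was measured on 8 one-colour Agilent arrays in 4 groups of 2 replicates. Per the file headers, the array design was 021169 and the scans were read by Agilent Feature Extraction, version 10.10.1.1, with its protocol GE1_1010_Sep10. The deposited files hold linear intensity values, from which background and spatial trend had been removed per array, with no scaling across arrays. Per the labels' protocols, 500 ng of RNA was amplified from an oligo(dT) primer and labelled with Cy3. The authors' deposited value table, also intensity, equals the processed signal times 1 factor per array and served as an alternative.

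From 45220 spots, 43803 non-control spots gave 43603 probes, of which 34392 matched a locus by RefSeq accession. Spots of a probe were averaged, log2 was taken and the array's 75th percentile of non-control probes was subtracted. Probes had to be well above background in both replicates of 1 or more of the 3 21-day groups, and the brightest kept probe stood for its locus. Levels are relative to that percentile and are not comparable between probes. limma 3.58.1 in R 4.3.3 (lmFit, eBayes, 2-sided, Benjamini-Hochberg over all loci) was checked on simulated data. The named genes are all clock-list members, the 10 largest mean differences each way among loci detected on all 6 arrays, the 2 largest members of each other list, the 3 loci on each side of the limit and the 3 largest 2 DAG differences each way among members. Members and lists were chosen with earlier results of these data known. Lists were written from general knowledge, and 2 listed genes, BAM4 and BZIP2, had no matched probe.

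The replicate differences of the groups correlated across loci at 0.51 (aerial part and young leaves), 0.43 (aerial part and mature leaves) and 0.32 (young and mature leaves). The replicate block rests on these correlations. The labels do not say that replicates of the same number share plants, harvest or handling. With the 2 DAG pair the values were -0.09, -0.01 and -0.04. Alternatives covered background correction, scaling, filter, probe rule, source of values, variance model, arrays in the fit, limit, replicate block and leaving out arrays. Coordinates are left out, since the gene table follows TAIR10.1 and the array grid TAIR10.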

Additional observations from a re-analysis of the deposited data

Results flagged for a closer look

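For AT4G25940 the 2 DAG difference between replicates minus the mean 21-day difference was -2.88 on the log2 scale (limma, adjusted p = 0.0404). Replicate 2 at 2 DAG was not well above background, so the size of this value is not settled. AT4G33980 had -3.37 (adjusted p = 0.0404), but its 21-day differences chose it as a member and enter the test, so the value is a description. It had 2 DAG levels of -2.94 in replicate 2 and -2.80 in replicate 1. Both calls are lost when any 1 of the 21-day pairs is left out (0 loci called, 2145 to 3810 at an unadjusted p under 0.05).

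Probes with no locus in the annotation took no part in the comparisons above. Of 4201 such probes that passed the filter, 42 were at least 0.5 higher in replicate 2 in all 3 21-day groups (1%). By the same limit 21 were lower (0.5%). These shares are near those of all loci, 0.973% and 0.792%. They have no gene name here.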

How the results depend on the processing

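Mean differences of the 24 clock genes had the same sign in 120 of 120 recomputed values under 5 alternatives, and 112 moved by less than 1 SD of their 3 differences. Median scaling and the value table change all genes of an array by nearly 1 constant, so they could hardly move these values. The 8 that moved by more were LHY, RVE8, TOC1, PRR3, LUX, BOA and ELF3 with normexp and LUX with the mean over probes. With normexp RVE8 was at -0.50, BOA at 0.52, LHY at -1.08 and PRR9 at -0.62, each over 1.5 times smaller. Medians of the dawn, evening, cold, starch-breakdown and heat-shock lists kept their sign under 4 alternatives of background correction, scaling and source of values, with the same limit. Counts of loci at least 0.5 the same way in all 3 groups stayed within 1.5 times (188 higher, 153 lower) under the alternatives of scaling, filter, probe rule and source of values. The exceptions were normexp with 68 lower, a limit of 1 with 44 and 13, and no limit with 4374 and 4705. Without 1 pair, same-way counts in the remaining 2 groups were 239 to 276 higher and 237 to 260 lower, since fewer groups had to pass.

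limma calls for the replicate difference (168 higher, 152 lower) moved widely: 932 and 889 with normexp, 719 and 717 with probes detected on all 6 arrays, 759 and 725 with the value table, 899 and 1022 with trend and robust variance, and 2 and 0 with no filter (1868 lower at an unadjusted p under 0.05). One replicate term for all 4 groups gave 0 and 0 (1225 and 1203 unadjusted). Leaving out 1 pair gave 0 to 2 higher and 0 to 0 lower (limma; 2314 to 3411 loci either way at an unadjusted p under 0.05). Calls between ages (2) were 1236 with normexp, 449 with probes detected on all 6 arrays and 314 with the value table. They were 0 with quantile scaling (4125 unadjusted), with no filter (3807 unadjusted) and after leaving out any 1 pair (2145 to 3810 unadjusted). The cause was not tested.

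Mature minus young counts kept within 1.5 times throughout: 7613 higher and 7844 lower with the replicate block, and 5987 to 6676 higher and 6489 to 7062 lower without 1 array. For the replicate difference itself no paired alternative was possible because it is already a difference within pairs.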

Other observations

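At 2 DAG, all 18 light-harvesting genes were above 0 in replicate 2 minus replicate 1, with a median of 0.32, beside 49.5% of all loci above 0, and against a median of 0.00 for the 21-day mean. LHCB2.3, an antenna protein of photosystem II, had 2 DAG levels of 5.40 in replicate 2 and 4.77 in replicate 1. All 14 genes of dark and sugar starvation were also above 0 (median 0.21). At least 0.5 higher were 3 of 10 heat-shock genes, among them HSP70 with 0.68, and 4 of 15 cold-regulated genes, beside 2.51% of all loci. Other lists leaned the same way, with 8 of 8 nitrogen-assimilation, 10 of 11 shade, 10 of 11 chlorophyll-synthesis, 10 of 12 starch-synthesis and 11 of 15 cold-regulated genes above 0. Flavonoid genes (3 of 13 above 0) and markers of dividing cells (2 of 14) leaned the other way. These are single arrays with no replicate check.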
